A study of Saccharomyces cerevisiae with 2 samples.

Results

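Subtelomeric DNase I hypersensitive sites (DHS) are the stretches of open chromatin near the ends of the chromosomes of the budding yeast Saccharomyces cerevisiae. DNase I cuts chromatin where nucleosomes are absent or loose, and short stretches inside a DHS that are cut less than their flanks are called footprints. A DHS was counted here when its midpoint lay within 30 kb of either end of a nuclear chromosome and more than 1 kb from any tRNA gene. In the Hsp90 mutant G170D 204 of 2875 DHS met this rule, and in wild type (WT) 218 of 3155 did. A further 4 DHS in G170D and 5 in WT lay within 30 kb of an end and were left out because of a tRNA gene.

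The study set a strain with the temperature-sensitive Hsp90 allele G170D against WT, both of BY4741 background and both grown in the rich medium YPD at 37 °C for 6 h. The G170D culture started at an OD of 0.37 and the WT culture at 0.25, and both ended between 0.65 and 0.7, so that growth during the 6 h differed between the strains and cannot be told apart from genotype. Hsp90 is an abundant chaperone that many kinases, receptors and other client proteins need for their folding. There was 1 library per strain, so no value below has a replicate error and no test between strains could be made. Intervals are exact 95% intervals, treat regions as independent and cover counting error only, and the number of reads behind the lists is unknown.

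Yeast chromosomes end in telomere repeats, followed inward by X elements at all ends and Y′ elements, which encode a helicase, at some. The adjoining subtelomeric DNA holds few essential genes and many members of multicopy families for cell wall proteins, sugar uptake and metal uptake, and it is subject to silencing by the Sir proteins. Chromosome III also carries the silent mating cassettes HML and HMR near its ends. Near-identical copies share reads, and the sources used here do not say how reads with several matching positions were treated. Values for a single member of a family are therefore uncertain. Coordinates are those of sacCer3, counted from 1, and a gene's start and end are those of its coding region.

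The subtelomeric DHS covered 140 kb in G170D and 170 kb in WT, which is 14.7% in G170D and 17.9% in WT of the 952 kb that could hold them. Further inside the chromosomes, over 30 kb from an end and over 1 kb from a tRNA gene, 2396 DHS in G170D covered 12.9% and 2646 DHS in WT covered 15.7%. The ratio of G170D to WT length was 0.824 in the subtelomeres and 0.823 further inside. The ratio of DHS number was 0.936 in the subtelomeres, with an interval of 0.769 to 1.14, and 0.906 further inside, with an interval of 0.856 to 0.957. The 0.936 lies within counting error of equal numbers, and the shorter total in G170D came with a mean width of 687 bp, against 780 bp in WT.

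Subtelomeric DHS were wider than those further inside. Their median width was 504 bp in G170D and 538.5 bp in WT, while the DHS further inside had medians of 356 bp in G170D and 336 bp in WT. Widths ran from 30 to 4767 bp in G170D and from 22 to 6279 bp in WT. DHS over 1 kb numbered 46 in G170D (22.5%) and 58 in WT (26.6%), and they held 54.4% of the subtelomeric DHS length in G170D and 61.5% in WT. Further inside, 15.5% of DHS in G170D and 20.8% in WT were wider than 1 kb. The density of DHS itself was 21.4 per 100 kb in G170D and 22.9 in WT, and further inside it was 22.7 in G170D and 25.03 in WT.

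The authors gave each DHS a score, used here to rank DHS within a list. The strongest 25% of the G170D list held 79 subtelomeric DHS, 38.7% of them (interval 32.0% to 45.8%). The same part of the WT list held 99, or 45.4% (38.7% to 52.3%). Further inside 18.9% of DHS in G170D and 18.7% in WT ranked that high. The very top of both lists lay elsewhere, since the best-ranked subtelomeric DHS held place 84 in G170D and 92 in WT. That DHS lay at II:29255-29735 in G170D and II:29193-29735 in WT, upstream of the retrotransposon genes YBL100W-A and YBL100W-B.

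**Figure D1:**
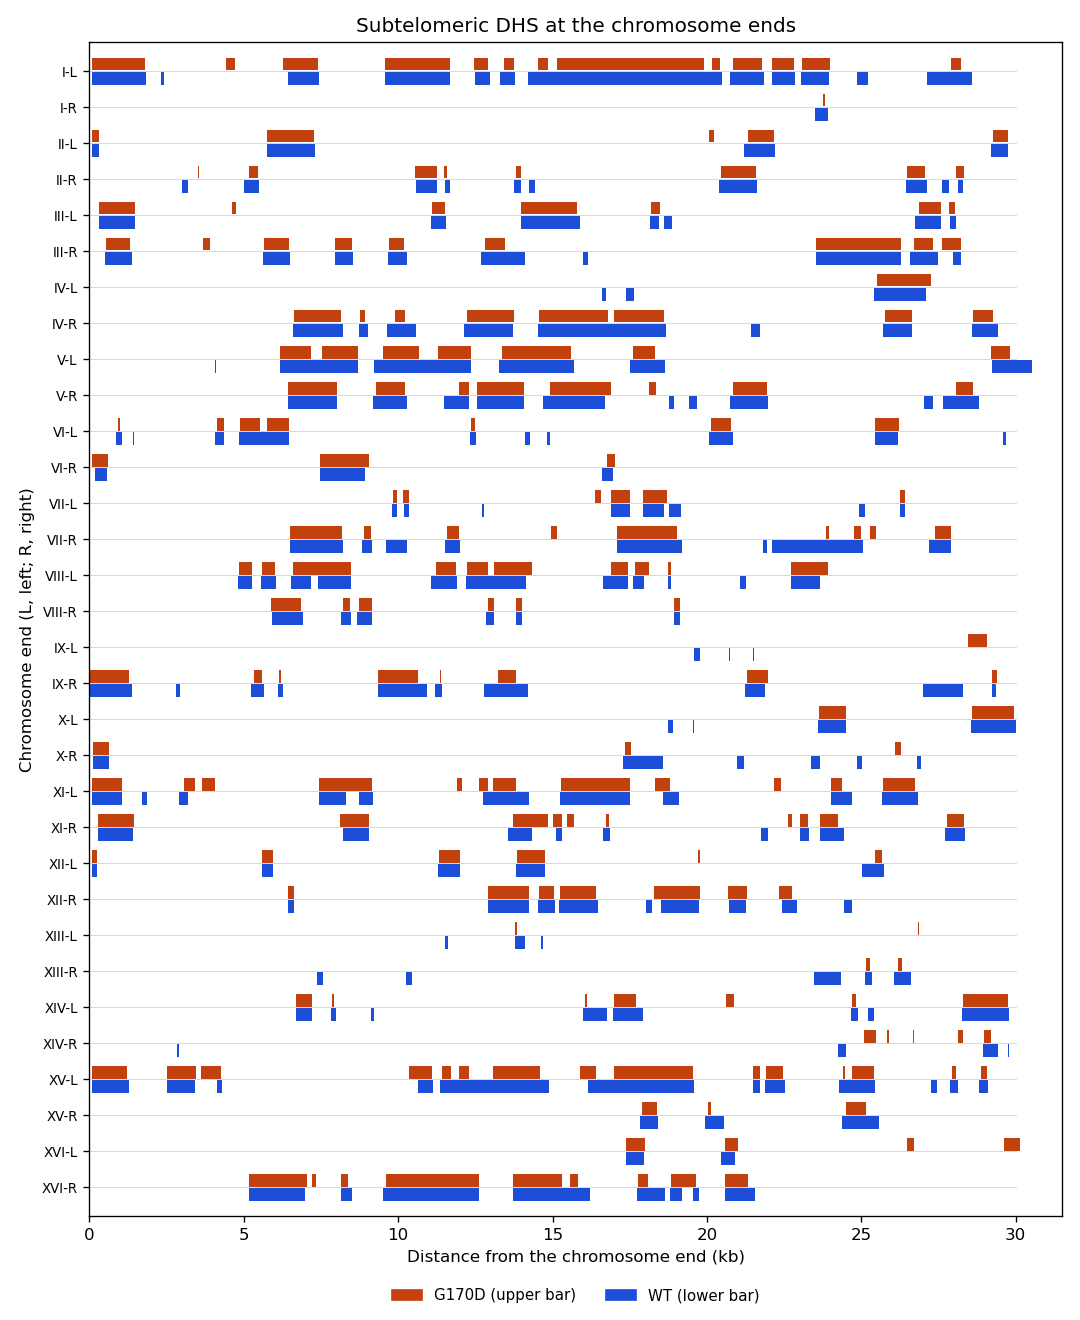
Position of every subtelomeric DHS at the 32 chromosome ends, by distance from the end in kb, for G170D and WT on paired lines. Regions repeat at nearly the same places in both strains, and the left end of chromosome I carries the longest runs.

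The genes around these DHS lay differently from those further inside. Of the subtelomeric sequence 52.2% was coding, and 17.1% of the DHS length in G170D and 21.1% in WT fell on it. Further inside 76.5% of the sequence was coding and took 58.2% of the DHS length in G170D and 61.0% in WT. In the subtelomeres DHS covered 4.81% of the coding bases in G170D and 7.23% in WT, while they covered 25.5% of the noncoding bases in G170D and 29.5% in WT. Further inside they covered 9.86% of the coding bases in G170D and 12.5% in WT, and 23.0% of the noncoding bases in G170D and 26.1% in WT. In both strains the subtelomeric value was thus the lower one on coding sequence and the higher one on noncoding sequence.

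By its midpoint a DHS was placed inside a coding region or between genes. In G170D 43 of the 204 lay inside coding regions, 47 between diverging genes, 69 between tandem genes, 36 between converging genes and 9 outside the outermost gene. In WT 54 of the 218 lay inside coding regions, 41 between diverging genes, 70 between tandem genes, 40 between converging genes, 10 outside the outermost gene and 3 in a gene of another kind. The coding share was 21.1% in G170D and 24.8% in WT, and further inside it was 51.6% in G170D and 55.9% in WT. A gap between diverging genes holds the starts of both neighbours, whereas a gap between converging genes holds neither start. Between converging genes the median width was 629.5 bp for the 36 DHS of G170D and 667 bp for the 40 of WT, above the 580 bp that both strains had between diverging genes. Further inside the order was the same. There the medians between converging genes were 507.5 bp in G170D and 571 bp in WT, and between diverging genes 361.5 bp in G170D and 401 bp in WT.

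Within the 30 kb coverage was lowest next to the telomere. In the first 5 kb DHS covered 8.25% in G170D and 7.93% in WT. No allowance was made for bases where reads match several positions, and their part in this was not tested. From 5 to 10 kb coverage was 17.6% in G170D and 19.2% in WT, and from 10 to 15 kb it was 19.5% in G170D and 24.5% in WT. From 15 to 20 kb it was 19.3% in G170D and 23.1% in WT. It was then lower, at 10.7% in G170D and 15.7% in WT from 20 to 25 kb, and at 13.3% in G170D and 17.4% in WT from 25 to 30 kb. The first 5 kb was the single class of these 6 in which G170D had more covered length than WT, and the margin there was small. The next class inward, from 30 to 35 kb, had 20.0% in G170D and 23.5% in WT, so coverage does not drop at the 30 kb limit. Further inside, coverage was 7.69% in G170D and 8.97% in WT from 40 to 45 kb, in G170D below that of the first 5 kb. In all these classes DHS near tRNA genes were left out, while the bases around tRNA genes still counted as sequence. Classes with such genes can thus be understated, and the part of this in the order of the classes was not tested. The limit fell close to some DHS: in G170D the innermost DHS kept lay at XVI:29615-30145, with its midpoint 29.88 kb from the end, and the first one not kept was 30.02 kb away, at II:29923-30112. In WT the corresponding distances were 29.89 kb at V:29240-30536 and 30.01 kb at XVI:29601-30411.

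**Figure D2:**
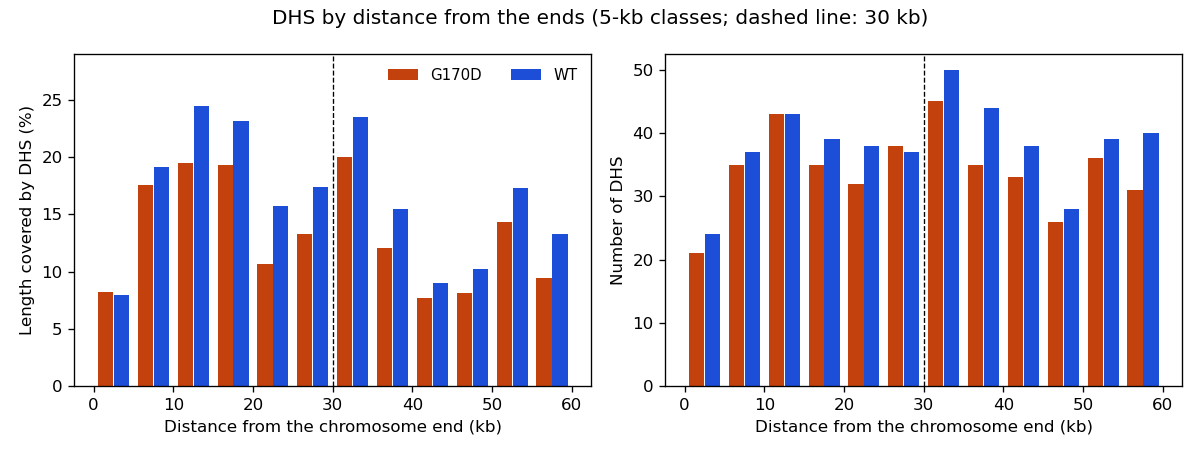
Percent of sequence covered by DHS and number of DHS in classes of 5 kb from the chromosome end out to 60 kb, for G170D and WT. DHS near tRNA genes are left out, and all bases count as sequence. The class from 0 to 5 kb has 8.25% covered in G170D and 7.93% in WT, and the classes from 5 to 20 kb have between 17.6% and 24.5%.

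At the very ends a DHS was either close to the telomere or several kb away. The midpoint of the outermost DHS lay within 1 kb of the end at 12 of 32 ends in G170D and at 12 in WT. The nearest was on the left arm of chromosome XII, at XII:76-233 in G170D (158 bp, 6 footprints) and XII:76-232 in WT (157 bp, 5 footprints). It ranked 96th of all DHS in G170D and 183rd in WT. Next came the left end of chromosome II, at II:76-324 in G170D and II:76-319 in WT. The third was the right end of chromosome VI in G170D, at VI:269572-270063, and the right end of chromosome X in WT, at X:745130-745652. Both strains had a DHS at each of these 4 ends.

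The Y′ helicase genes YRF1 marked ends with another layout. A YRF1 gene lay at 7 of the ends, and 8 such genes were listed in all. At none of the 7 did a DHS midpoint lie within 5 kb of the end in either strain. Of the 25 other ends, 12 had one within 1 kb in each strain, the left ends of XII and II among them. Ends were sorted by the standard gene name YRF1 alone, and Y′ elements themselves were not annotated here. The 25 other ends may therefore include ends with a Y′ element, and the contrast holds for YRF1 genes only. The outermost DHS at the 7 ends lay 6.53 to 18.1 kb inside in both strains, with medians of 7.34 kb in G170D and 7.36 kb in WT. The coding regions of all 8 YRF1 genes had 0 bp of DHS in G170D and in WT. The YRF1 copies are near-identical, so that reads from them match several positions, and the part of this in their empty coding regions was not tested. Some DHS next to them ranked high. Beside YRF1-3 on the right arm of chromosome VII the DHS spanned VII:1082773-1084437 in G170D, with 46 footprints and rank 124, and VII:1082729-1084437 in WT, with 58 footprints and rank 132. It ended 426 bp before the start of YRF1-3 in both strains.

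The 32 ends differed greatly from each other. The DHS length per 30 kb ran from 51 to 14230 bp in G170D, with a median of 3215.5 bp, and from 262 to 16819 bp in WT, with a median of 4247 bp. All ends had at least 1 DHS in each strain. The 5 ends with most length held 36.9% of it in G170D and 35.8% in WT. The left end of chromosome I led both lists, with 14230 bp in G170D and 16819 bp in WT. In WT the left end of XV with 12457 bp and the right end of IV with 10685 bp followed, where G170D had 10572 bp at XV and 8901 bp at IV. The right end of XVI took the third place in G170D with 8974 bp, where WT had 10257 bp.

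The 3 least covered ends in G170D were the right end of I and both ends of XIII. In WT they were the left end of IX, the right end of I and the left end of XIII. On the right arm of chromosome I the single DHS, inside the flocculin gene FLO1, was 51 bp wide in G170D and 421 bp in WT. The left end of XIII had 117 bp in G170D and 488 bp in WT, and the right end of XIII had 300 bp in G170D and 2049 bp in WT. The left end of IX had 608 bp in G170D and 262 bp in WT. Coding content was alike at the ends of chromosome I, the fullest and one of the emptiest: 26.9% of the sequence was coding at its left end and 24.7% at its right end. This pair does not stand for all ends. Over all of them Pearson's r between DHS length and the coding share was -0.288 in G170D and -0.302 in WT.

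The length was smaller in G170D at 26 of the 32 ends and larger at 6. The largest differences were at the right end of VII, with 5390 bp in G170D and 9077 bp in WT, the right end of IX, with 4287 bp in G170D and 7406 bp in WT, and the left end of V, with 7917 bp in G170D and 10590 bp in WT. The 6 ends with more length in G170D were the left ends of IX, XI and XVI and the right ends of VI, XI and XIV. Their excess ran from 33 to 729 bp, the most being at the left end of XVI, with 1772 bp in G170D and 1043 bp in WT. There 531 bp of the G170D length is the DHS at XVI:29615-30145, whose WT counterpart fell just beyond 30 kb. Without the right end of VII the ratio of G170D to WT length over the remaining ends was 0.837, and without the left end of I it was 0.822.

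**Figure D3:**
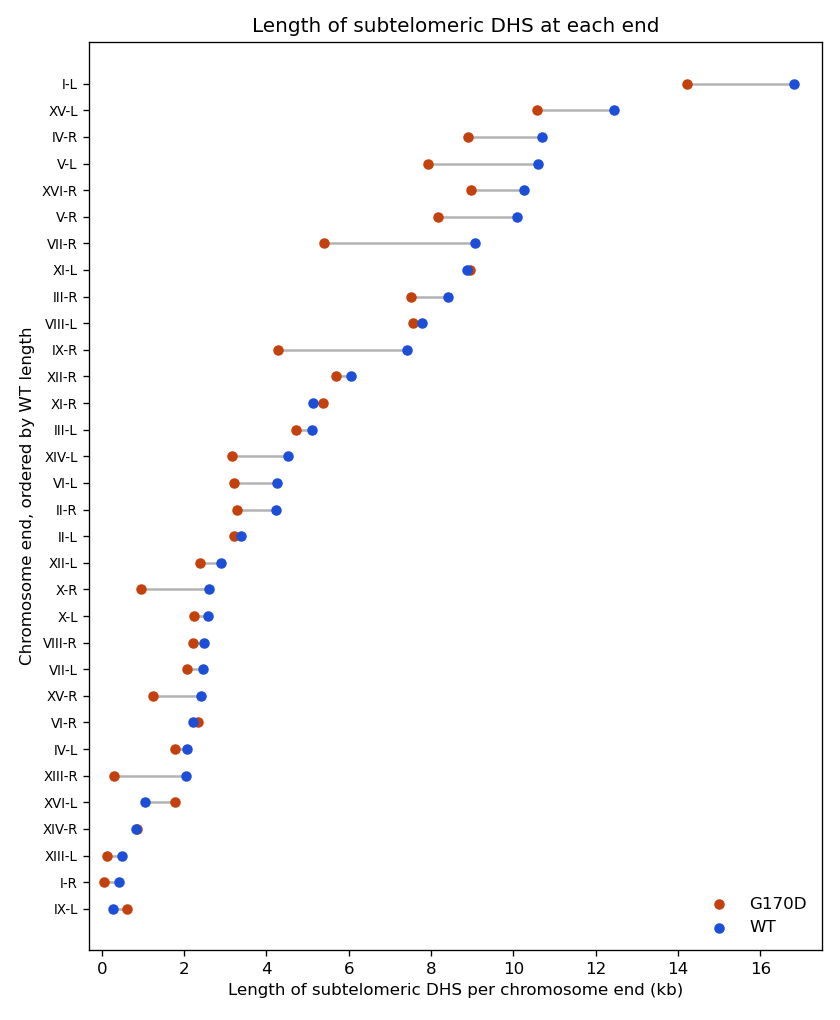
DHS length in kb within 30 kb of each of the 32 chromosome ends, G170D and WT joined by a line. The G170D point shows less length than the WT point at 26 ends, and the ends range from under 100 bp in G170D to 16819 bp in WT.

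Overlap between the strains was high. In G170D 24 subtelomeric DHS, or 11.8% (7.69% to 17.0%), overlapped no WT DHS, where 17.7% of the whole G170D list overlapped none. In WT 49, or 22.5% (17.1% to 28.6%), overlapped no G170D DHS, where 28.3% of the whole WT list overlapped none. Further inside 19.9% (18.4% to 21.6%) of G170D DHS and 30.2% (28.4% to 31.9%) of WT DHS had no counterpart. Both subtelomeric shares were thus lower than those further inside, and the intervals of the subtelomeres and the interior were apart in G170D and overlapped slightly in WT. DHS without a counterpart were narrow, with median widths of 182.5 bp in G170D and 176 bp in WT, against 585.5 bp in G170D and 729 bp in WT for those with one.

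Score moved with these shares. Among subtelomeric DHS in the strongest 25% of a list, 0 of 79 in G170D and 0 of 99 in WT lacked a counterpart, and these counts of 0 allow up to 4.56% in G170D and 3.66% in WT by the exact interval. In the weakest 25% the shares were 12 of 34 in G170D (35.3%) and 27 of 42 in WT (64.3%). Further inside the weakest 25% had shares of 40.9% in G170D and 65.0% in WT. In the next weakest 25%, 24.3% of subtelomeric DHS in G170D and 47.4% in WT had no counterpart, against 21.7% in G170D and 38.1% in WT further inside. In the strongest 25% further inside, 3.76% in G170D and 0.202% in WT had no counterpart. In the next 25% it was 5.56% of subtelomeric DHS in G170D and 10.3% in WT, against 7.90% in G170D and 7.58% in WT further inside. Within classes of score the subtelomeric share was thus below that further inside in some classes and above it in others.

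**Figure D4:**
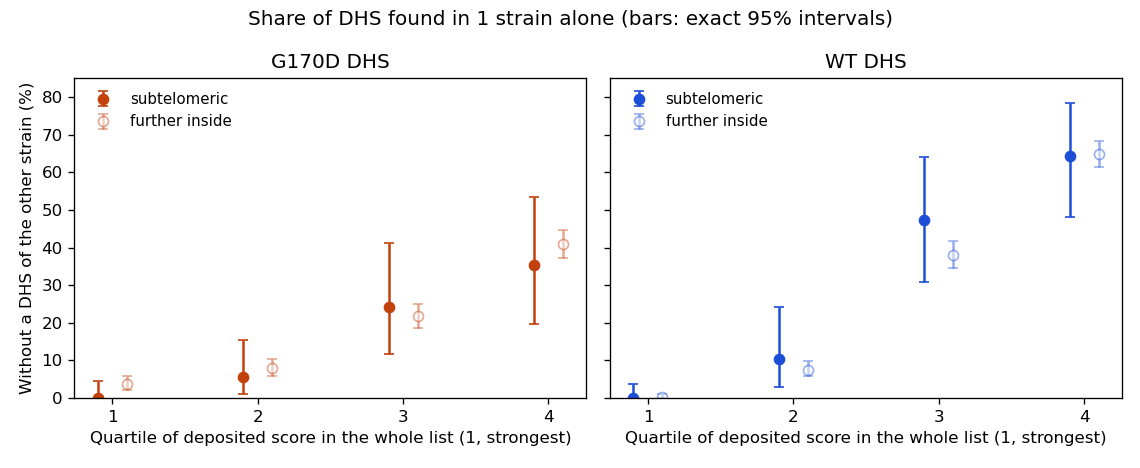
Percent of DHS without a counterpart in the other strain, by quartile of the authors' score within each list, for subtelomeric DHS and those further inside, with exact 95% intervals. The shares run from 0% in the strongest quartile of subtelomeric DHS to 35.3% (G170D) and 64.3% (WT) in the weakest.

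The difference in length lay mainly in DHS that both strains had. DHS without a counterpart held 4.56 kb in G170D and 10.5 kb in WT. In DHS with a counterpart, 6.84 kb in G170D and 31.2 kb in WT lay beyond the limits of the other strain's DHS. Further inside, DHS without a counterpart held 110 kb in G170D and 183 kb in WT. In those with one, 131 kb in G170D and 349 kb in WT lay beyond the limits of the other strain's DHS. Joined over both strains the subtelomeric DHS formed 240 regions, of which 167 were found in both, 24 in G170D alone and 49 in WT alone. Of the 167 shared regions 131 were shorter in G170D, 33 were longer and 3 were equal. In 2 of the 167, on the right arm of XII and the left arm of XVI, a DHS outside the rule ran past the joined region and was counted only within it. Without them 130 were shorter in G170D, 33 longer and 2 equal. The median shared region was 73 bp shorter in G170D and had 90.8% of its WT length. In 23 of them G170D had under 50% of the WT length, and in 3 it had over 200%.

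The widest subtelomeric DHS lay in the gene-poor left end of chromosome I, between TDA8 and YAL064W. It spanned I:15129-19895 in G170D, 4767 bp with 125 footprints, and I:14207-20485 in WT, 6279 bp with 197 footprints. Within the WT limits G170D had 3 separate DHS, together 5365 bp with 132 footprints. A second wide DHS of that end, which reached into YAL065C, was 2084 bp wide in G170D (I:9586-11669) and 2125 bp in WT (I:9566-11690). Near the right end of XVI a DHS lay between SGE1, a drug exporter gene, and ARR1, the activator gene of arsenic resistance. It was 3008 bp wide with 58 footprints in G170D (XVI:935457-938464) and 3113 bp with 74 footprints in WT (XVI:935435-938547). The limits of the last of these were nearly the same in both strains, while the widest region was longer on either side in WT.

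Other wide DHS lay at genes of transport and metabolism. The DHS from CSS3 to ENB1, a siderophore transporter gene for iron uptake, was 2543 bp wide in G170D (XV:17004-19546) and 3429 bp in WT (XV:16137-19565). A second G170D DHS of 503 bp (XV:15903-16405) overlapped the same WT DHS, so that the region held 3046 bp in G170D and 3429 bp in WT. From FDC1, a decarboxylase gene for phenylacrylic acids, to IRC4 G170D had 2 DHS, of 1608 bp (IV:1513334-1514941) and 2223 bp (IV:1515144-1517366). WT had 1 DHS of 4147 bp there (IV:1513257-1517403). The region held 3831 bp and 73 footprints in G170D, and 4147 bp and 101 footprints in WT. The DHS between COS9 and SRY1, a dehydratase gene for hydroxyaspartate, was 2219 bp wide in G170D (XI:15278-17496) and 2245 bp in WT (XI:15253-17497). Around RMD6, a gene named for a sporulation phenotype, it was 2210 bp in G170D (V:13378-15587) and 2442 bp in WT (V:13254-15695). The DHS at PUG1, which takes part in porphyrin transport, was 1960 bp wide in G170D (V:559986-561945) and 1995 bp in WT (V:560175-562169). Between MAL13 and MAL11, the activator and transporter genes of a maltose locus, it was 1939 bp with 26 footprints in G170D (VII:1071925-1073863) and 2091 bp with 32 footprints in WT (VII:1071764-1073854).

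The left end of V had further wide DHS in WT, between YEL073C and RMD6 and over YEL073C. The first measured 3146 bp in WT (V:9221-12366), where G170D had 2 DHS of 2238 bp together. The second measured 2541 bp in WT (V:6166-8706), where G170D had DHS at V:6182-7164 and V:7542-8704. G170D thus had more DHS on the same stretch and less of it covered. The last of the 10 widest WT DHS, 2478 bp at XVI:931859-934336, lay over YPR196W, a gene of maltose activator type, and the start of SGE1.

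The 5 regions that differed most in length were all longer in WT. At IMA1, an isomaltase gene on the right arm of chromosome VII, WT had 1 DHS of 2956 bp with 39 footprints (VII:1065884-1068839), where G170D had 2 DHS of 299 bp together with 2 footprints. The WT DHS covered 91.4% of the IMA1 coding region, and in G170D 0% was covered. It was wide but not strong, at rank 1072 of the 3155 WT DHS. At PAU20, a gene of the seripauperin cell wall family, G170D had 3 DHS of 2191 bp with 44 footprints and WT had 1 of 3513 bp with 77. At DAL2 and DCG1, genes of the allantoin degradation cluster on chromosome IX, G170D had no DHS and WT had one of 1308 bp with 22 footprints (IX:411583-412890). At FLO9, a flocculin gene, G170D had 333 bp with 6 footprints and WT 1469 bp with 32. At AAD10, a putative aryl-alcohol dehydrogenase gene, G170D had 210 bp with 3 footprints and WT 1285 bp with 20.

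In WT these regions reached into coding sequence to different extents. The WT DHS covered 100% of the coding region of DCG1, AAD10 and PAU20, 91.4% of IMA1 and 24.8% of DAL2. At FLO9 WT DHS covered 30.4%, and part of that was a separate WT DHS, at I:24862-25226, outside the region named above. In G170D DHS covered 0% of DCG1, DAL2 and IMA1, 1.97% of FLO9, 7.15% of AAD10 and 45.7% of PAU20. Over all 377 subtelomeric genes DHS covered more than 50% of the coding region in 20 genes in G170D and 32 in WT. They touched the coding region of 105 genes in G170D and 135 in WT. In 10 genes the whole coding region was covered in both strains, among them PEX34, a peroxisome gene, and RMD6. Such counts for other nuclear genes are not given here. Further inside, DHS also covered less of the coding bases in G170D, 9.86% against 12.5% in WT, so lower values in G170D were not particular to the subtelomeres.

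The widest DHS found in G170D alone was 608 bp with 8 footprints, at SDL1 on the left arm of IX (IX:28470-29077). Next was one of 391 bp with 5 footprints at DSE4, a glucanase gene of daughter-cell separation (XIV:758856-759246). The next ones were 278 bp wide near SEO1 (I:4429-4706), 258 bp in PEX6, a peroxisome assembly gene (XIV:20619-20876), and 241 bp between FLO10 and NFT1 (XI:651108-651348). The widest found in WT alone were larger. After the one at DAL2 and DCG1 came 894 bp with 14 footprints in TGL3, a lipase gene (XIII:900080-900973), and 675 bp with 16 footprints between PAU12 and COS6 (VII:1080662-1081336). Then came 366 bp upstream of ZRT1, the high-affinity zinc transporter gene (VII:18778-19143), and 365 bp in FLO9 (I:24862-25226).

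Footprints were fewer in G170D. The subtelomeric DHS held 2829 footprints in G170D and 3863 in WT, a ratio of 0.732 (0.697 to 0.769), and the ratio further inside was 0.742. They were fewer in G170D at 30 of the 32 ends. Within the 128 kb covered in G170D and WT alike, G170D had 2674 footprints and WT 3252, a ratio of 0.822 (0.781 to 0.866). That is 20.9 per kb in G170D and 25.4 per kb in WT, and further inside it was 18.0 in G170D and 21.6 in WT, with a ratio of 0.836. Of the footprints in the subtelomeric length covered by both, 76.2% in G170D and 63.7% in WT overlapped one of the other strain. Further inside the shares were 69.1% in G170D and 58.5% in WT. How many footprints can be called moves with read depth, which is unknown, and its part in these ratios was not tested.

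Strong footprints were more frequent near the ends than further inside, where DHS near tRNA genes are left out. Of the subtelomeric footprints 10.1% in G170D (8.99% to 11.2%) and 11.3% in WT (10.3% to 12.3%) belonged to the strongest 10% of their list. Further inside 6.13% in G170D and 5.67% in WT did. The G170D interval includes 10%, the share of a whole list by definition, and the WT interval lies just above it. The strongest lay on the right arm of chromosome VIII upstream of the retrotransposon gene YHR214C-C. In G170D it was VIII:549705-549733, at rank 44, with another at VIII:549613-549642, at rank 55. In WT the strongest was VIII:549617-549644, at rank 56. Several others sat next to the telomere itself, such as XII:108-133 in G170D and XII:108-135 in WT, and II:195-224 in G170D and II:194-220 in WT. Near YRF1-3 there was one at VII:1083883-1083912 in G170D and at VII:1083885-1083908 in WT. Their limits differed by a few bases between the strains.

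The silent mating cassettes are flanked by silencer elements that recruit the Sir proteins, and their copies of the mating-type genes are kept inactive. At HML, neither strain had any DHS over the coding regions of HMLALPHA1 and HMLALPHA2 or their 500 bp upstream. The reference strain also carries the alpha genes at the mating-type locus, so reads from these HML genes match several positions. The part of this in their empty regions was not tested, and no conclusion on silencing is drawn from them. DHS stood on both sides of the cassette. On one side lay III:11103-11531 in G170D, 429 bp with 9 footprints, and III:11078-11559 in WT, 482 bp with 15 footprints. On the other side lay III:13984-15792 in G170D, 1809 bp with 46 footprints, and III:13981-15892 in WT, 1912 bp with 68 footprints. Both flanking DHS had fewer footprints in G170D.

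At HMR a tRNA gene stands beside the cassette and is known to limit the spread of silencing. On the side of the cassette away from the tRNA gene the DHS was III:290351-293104 in G170D, 2754 bp with 82 footprints, and III:290335-293103 in WT, 2769 bp with 93 footprints. The DHS that reached the tRNA gene was left out by the rule. It spanned III:293640-297332 in G170D, 3693 bp with 110 footprints, and III:293640-297327 in WT, 3688 bp with 119 footprints. It covered all 487 bp of HMRA1 in both strains and none of the HMRA2 coding region. The reference strain carries the alpha allele at the mating-type locus and BY4741 the a allele, so reads from the active a genes also match HMR, and the cassettes cannot be told apart there.

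**Figure D5:**
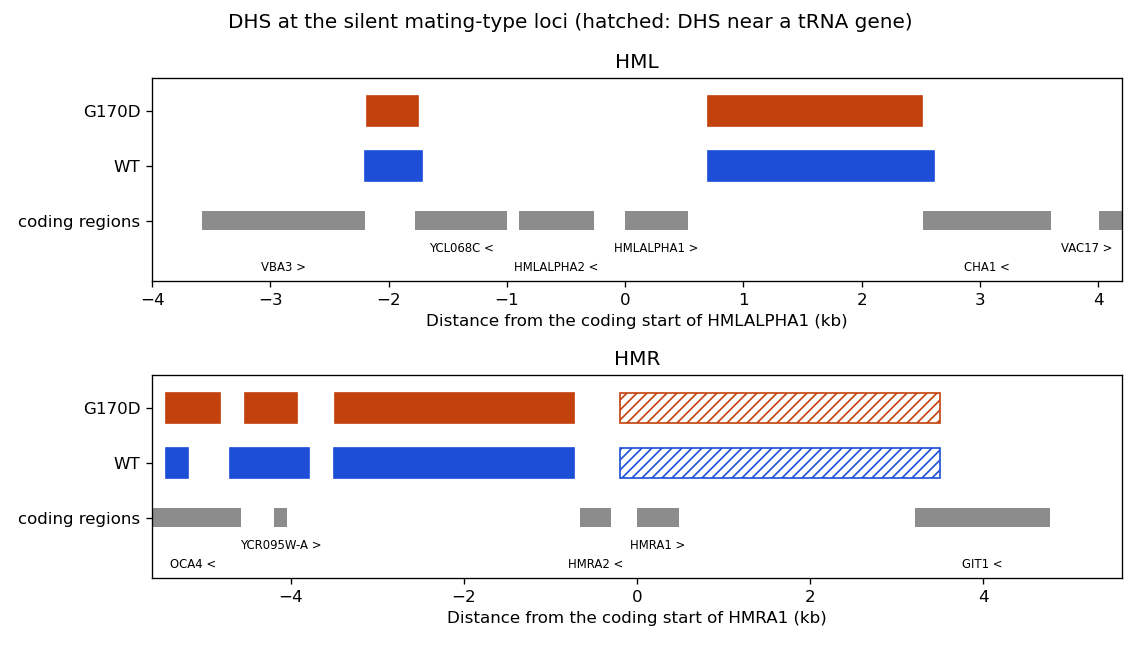
DHS around the silent cassettes HML and HMR by distance in kb from a coding start, for G170D and WT, with genes below and the DHS left out near a tRNA gene hatched. HMLALPHA1 and HMLALPHA2 carry 0 bp of DHS in both strains, and the hatched DHS covers the 487 bp of HMRA1 in both. Reads from the genes of either cassette match several positions, and the part of this in these values was not tested.

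Promoters were taken as the 500 bp upstream of the coding start, and a promoter DHS as at least 1 bp of a subtelomeric DHS in that window. Of the 377 genes that start within 30 kb of an end, 83 had one in G170D (22.0%, interval 17.9% to 26.5%) and 93 in WT (24.7%, 20.4% to 29.3%). Of the other nuclear genes 29.96% in G170D and 31.98% in WT had one from the whole lists. Those lists include DHS near tRNA genes, which the subtelomeric counts leave out, so the shares are not measured alike. The strains shared a promoter DHS at 75 of the 377 genes, G170D alone at 8 and WT alone at 18. The share in G170D alone, 2.12%, stood beside 4.98% over all nuclear protein-coding genes, and the share in WT alone, 4.77%, beside 7.05%. Coverage was lower in G170D at 64 genes, higher at 19 and equal at 294, and 276 of these 294 had 0 bp in both. At the 5625 other nuclear genes, counted from the whole lists, it was lower in G170D at 1054, higher at 652 and equal at 3919. Coverage of the 377 genes averaged 61.7 bp of the window in G170D and 73.2 bp in WT. In 14 genes, SGE1, OPT2 and HXT11 among them, the window was covered in full in both strains.

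The gene families were described by their promoter coverage, and 105 of the 377 genes belonged to 12 lists. Of these 105, coverage was lower in G170D at 26 and higher at 2, MAL11 and ADH7. The other 272 genes had lower coverage in G170D at 38 and higher at 17. The seripauperin genes PAU, whose products are cell wall mannoproteins linked to anaerobic growth, numbered 19. A promoter DHS was shared by the strains at 6 of them, found in WT alone at 2 and in neither at 11. PAU4 and PAU13 were covered over all 500 bp in both strains. PAU20 had 343 bp in G170D and 500 bp in WT, and PAU10 had 169 bp in G170D and 282 bp in WT. PAU15 had 50 bp in G170D and 145 bp in WT, and PAU8 had 0 bp in G170D and 94 bp in WT. In this list 6 genes were lower in G170D and 0 higher.

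The COS genes encode related membrane proteins that act in endosomal sorting. Of 11 members 4 had a promoter DHS in each strain and 1 had it in WT alone. COS9 had 0 bp in G170D and 240 bp in WT, and COS1 had 43 bp in G170D and 145 bp in WT. COS8 had 97 bp in G170D and 141 bp in WT, and COS6 had 457 bp in G170D and 500 bp in WT. COS4 was covered in full in both. Of the 8 YRF1 genes 1 had a promoter DHS, with the same length in both strains. The 7 hexose transporter genes had 1 as well, at HXT11, which was covered in full in both.

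Of 13 genes for maltose and other sugars 1 had a shared promoter DHS, 1 had one in G170D alone and 2 in WT alone. IMA2 had 137 bp in G170D and 500 bp in WT, IMA4 had 0 bp in G170D and 153 bp in WT, and IMA1 had 0 bp in G170D and 135 bp in WT. MAL11, an alpha-glucoside transporter gene, went the other way, with 169 bp in G170D and 0 bp in WT. The DHS behind that value was 191 bp wide with 2 footprints and lay between the diverging genes MAL11 and MAL12 (VII:1075792-1075982). The 3 flocculin genes had 1 promoter DHS, at FLO9, with 255 bp in G170D and 500 bp in WT. Some IMA genes, and some FLO genes, are close copies of each other.

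Among 12 genes for iron, arsenic and other metals 4 promoter DHS were shared and 1 was found in WT alone. ARN1, a ferrichrome transporter gene, had 0 bp in G170D and 195 bp in WT. ARR3, an arsenite exporter gene, had 224 bp in G170D and 342 bp in WT, and ARR2, an arsenate reductase gene, had 230 bp in G170D and 257 bp in WT. ENB1 had 214 bp in G170D and 226 bp in WT. In this list 5 genes were lower in G170D and 0 higher. Among 11 aldehyde and alcohol dehydrogenase genes 4 promoter DHS were shared and 1 was found in WT alone. AAD10 had 0 bp in G170D and 221 bp in WT, and AAD14 had 460 bp in G170D and 500 bp in WT. FDH1, for formate dehydrogenase, had 488 bp in G170D and 500 bp in WT, and ADH7 had 105 bp in G170D and 97 bp in WT.

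The smaller lists had few promoter DHS. Of 9 vitamin genes THI5, a thiamine synthesis gene, had 50 bp in G170D and 90 bp in WT, and the other 8 had none. Of 4 phosphate genes PHO89, a phosphate transporter gene, had 0 bp in G170D and 191 bp in WT. Of the 4 genes of the HSP31 family, small chaperone-like proteins, HSP31 had 7 bp in G170D and 161 bp in WT and the other 3 none. The 4 silent mating genes had none under the rule used here. With the DHS left out near the tRNA gene at HMR, HMRA1 had 195 bp and HMRA2 399 bp in both strains. Reads there match several positions, as said above.

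Genes outside the lists gave differences in both directions. GLC8, which regulates a protein phosphatase, and ELP6, an Elongator subunit, share a promoter region on chromosome XIII. GLC8 had 0 bp in G170D and 293 bp in WT, and ELP6 had 144 bp in G170D and 460 bp in WT. EMA35 had 0 bp in G170D and 199 bp in WT, and PAD1, a partner of FDC1, had 0 bp in G170D and 121 bp in WT. DMC1, a meiotic recombinase, had 171 bp in G170D and 356 bp in WT, and RMD6 had 342 bp in G170D and 466 bp in WT. In the other direction the largest promoter difference of all subtelomeric genes was at YOL164W-A, which has no standard name, with 500 bp in G170D and 12 bp in WT. YPR195C, also without one, had 380 bp in G170D and 215 bp in WT. DAL5, an allantoate transporter gene, had 212 bp in G170D and 0 bp in WT. DSE4 had 147 bp in G170D and 0 bp in WT, and SRY1 had 461 bp in G170D and 272 bp in WT. Of the genes without a standard name, YBR292C had 37 bp in G170D and 230 bp in WT, YCR095W-A had 329 bp in G170D and 500 bp in WT, and YCR101C had 361 bp in G170D and 500 bp in WT. PDP3, a chromatin-associated protein gene, had 0 bp in G170D and 138 bp in WT under the rule. With the G170D DHS that was left out near a tRNA gene, however, its window was covered over all 500 bp in G170D. At DAL5 WT had DHS on either side of the G170D one, at X:718819-718947 and X:720716-720901, and the 3 were 129 to 212 bp wide.

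Regions touching the multicopy families listed here held the smaller part of the DHS and of their length. Families were marked by standard gene names. Retrotransposon genes, other genes without a standard name and repeats outside genes therefore counted among the rest. After joining over both strains, 33 DHS in G170D and 34 in WT belonged to regions that touched such a gene, with 23.2 kb in G170D and 33.6 kb in WT. The remaining 171 DHS in G170D covered 117 kb, and the remaining 184 in WT covered 136 kb. Without the regions that touched a family the ratio of G170D to WT length was 0.857, against 0.824 with them.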

How the data were processed

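DNase I hypersensitivity was sequenced in 1 library per strain, and the analysis began with the region lists that the authors deposited. The submitters' processing notes name Bowtie 0.12.8, FastQC and the build sacCer3. The caller of the DHS, its threshold and the read depth do not appear in the sources used here, and per the labels' protocols the selected fragments were short and also above 650 bp. Each DHS and footprint carries a score that the authors deposited, and the sources used here do not state its formula. DHS scores are positive and footprint scores negative, and they were used to rank regions within a list. 0 columns of other samples were used.

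Comparisons used scipy 1.17.1, pandas 2.3.3 and numpy 2.4.6 under Python 3.11.15, and figures matplotlib 3.10.9. Regions overlapped at 1 bp or more, and footprints were placed by midpoint. Genes came from an R64 RefSeq gene table, the same assembly as sacCer3, with 6002 nuclear protein-coding and 275 nuclear tRNA genes. Strands follow the systematic names. Shares have Clopper-Pearson intervals and ratios of counts exact binomial intervals. Part of the calculations was tested on copies of the WT lists, with subtelomeric DHS and their footprints removed at random from 1 copy. That test covered the ratios of DHS number and length, the shares without a counterpart and the footprint ratio in shared length. Other values were not tested in this way. Members, gene lists and comparisons were chosen with earlier results of these data known. The text names the 10 widest DHS of each strain, the 5 widest without counterpart, the 5 regions and 3 ends that differed most, the 3 ends with most and least length, up to 4 genes per list with the largest promoter difference, and the 10 genes outside the lists that have a standard name and the largest promoter difference. Other DHS, footprints and genes were named after their values were seen. Sequences of the regions were not used here, so a planned count of motifs was not run.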

Additional observations from a re-analysis of the deposited data

How the results depend on the processing

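Of 80 values computed under alternatives, 68 stayed in the same direction and near the value reported, 11 moved and 1 reversed. With lists cut to the same number of DHS the ratio of subtelomeric DHS number, G170D over WT, was 1.01 (0.827 to 1.23). Windows of 20 kb left 3 genes with a promoter DHS in G170D alone and 10 in WT alone, and 40 kb gave 17 in G170D alone. With the narrower DHS of each list, those below its median width, left out, 3 genes had one in G170D alone, and the shares without a counterpart were 0.885% in G170D and 2.34% in WT. When at least 50% of each DHS had to overlap, these shares were 36.3% in G170D and 40.8% in WT. Without DHS that touch multicopy families the length ratio was 0.916 and the footprint ratio 0.819, but this drops wide WT DHS and keeps their narrower G170D counterparts. Dropping joined regions in both strains gave a length ratio of 0.857 and a footprint ratio of 0.762. That alternative, leaving out the left end of I or the right end of VII, and taking promoter DHS from the whole lists were chosen after seeing the data. Among the strongest 50% of footprints the ratio in the length covered by both was 0.758. No paired analysis was possible because there was 1 library per strain. Read depth, replicate spread and reads with several matching positions limit all values.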

Other observations

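The DHS at the right end of chromosome IX stood apart from the other wide ones. It measured 1258 bp in G170D (IX:438611-439868, rank 202) and 1365 bp in WT (IX:438515-439879, rank 217) and held 0 footprints in both strains. In all, 10 subtelomeric DHS in G170D and 6 in WT held none, and their median widths were 72 bp in G170D and 56 bp in WT. The reason for the empty DHS was not tested.

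At left ends, 4 DHS in G170D and 4 in WT began exactly at base 76, on chromosomes I, II, XI and XII, and none began closer to the end. At right ends the closest DHS edge was base 21 from the end in G170D and base 10 in WT. Whether base 76 comes from the way the DHS were called was not tested.

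The allantoin genes, used when yeast lives on poor nitrogen sources, had mixed values. The DHS over DAL2 and DCG1 was found in WT alone, and the one upstream of DAL5 in G170D alone. Near DAL4 and DAL2 both strains had a narrow DHS, 157 bp with 0 footprints in G170D and 133 bp with 1 in WT.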
